A study of Mus musculus with 24 samples.

Results

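Left ventricle and skeletal muscle were compared in the same 4 adult mice, using 8 of the 24 ribosomal RNA-depleted total RNA libraries of a study of heart, skeletal muscle and kidney. The members are the 4 left ventricle libraries and the 4 skeletal muscle libraries of mice 14 and 15 (females) and 19 and 20 (males), all C57BL6/J and aged 16.5 weeks, with each mouse giving both tissues. No treatment or engineered allele is named for any group, and the skeletal muscle sampled is not named. The 8 libraries of 4 mice aged 86 weeks (11 and 12, females; 14 and 17, males, different animals) served as a second set, and kidney of the 16.5-week mice gave levels outside striated muscle. Values below are listed in the order of mice 14, 15, 19 and 20.

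Heart and skeletal muscle are both striated: myosin motors of the thick filament pull on actin in the thin filament, troponin and tropomyosin gate that contact with calcium, and Z-discs anchor the filaments. Many parts of this machine are encoded by separate genes, of which cardiac cells and fast or slow skeletal fibres use different ones. Cardiac cells are joined end to end by intercalated discs and work without rest on fat-derived fuel, whereas skeletal fibres are fused cells driven by motor nerves, and their fast types burn glycogen in bursts.

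The left ventricle libraries held 72233278, 74987299, 71093373 and 86164371 counts and the skeletal muscle libraries 90785138, 82986327, 70957211 and 64355186. Tissue lay along the first principal component, with 87.3% of the variance. Defining genes, such as Myh6 in left ventricle and Myh4 in skeletal muscle, were present in every library of the labelled tissue. Some libraries stood apart in genes of other tissues. Left ventricle of mouse 15 had 25.6 CPM (counts relative to the normalised library size) of the skeletal myosin gene Myh4 against at most 1.70 CPM in the other 3. Left ventricle of mouse 19 had 31.2 CPM of the atrial light chain gene Myl7 against at most 0.587 CPM. The kidney gene Umod stood at 6.98 CPM in left ventricle of mouse 20 and 16.1 CPM in skeletal muscle of mouse 19, against at most 1.504 CPM in the other 6 libraries and 1755 to 2494 CPM in kidney. Titin took 6.598 to 7.068% of counts in left ventricle and 15.1 to 17.33% in skeletal muscle, and the mitochondrial ribosomal RNAs 19.08 to 21.75% and 11.92 to 14.34%.

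Across the genome 10110 of 39582 genes tested passed an adjusted p of 0.05 by edgeR's quasi-likelihood test (25.5%), 7134 higher in left ventricle (18.0%) and 2976 higher in skeletal muscle (7.52%). At least 4-fold apart were 826 genes higher in left ventricle (2.09%) and 428 higher in skeletal muscle (1.08%). Differences below are log2 of left ventricle over skeletal muscle, given as estimate ± SE (n = 4 mice), with adjusted p-values (Benjamini-Hochberg) from that test, so that a positive value is higher in left ventricle, and the median over all genes tested was 0.05. How many differences fell on each side depended on the scaling. Left ventricle took 70.6% of the calls with the TMM factors used here, 62.4% with RLE size factors and 82.7% with library size alone. It took 33.2% with upper-quartile factors, which moved the median of all genes to -0.36. Restricting the test to genes with 1 CPM in 4 libraries gave left ventricle 58.9%, with 5717 of 18478 genes higher there and 3982 in skeletal muscle. In the main test 5990 of 21008 protein-coding genes were higher in left ventricle and 2446 in skeletal muscle. Both are larger shares than over all genes tested, and some list counts below lie near them. At least 4-fold apart with upper-quartile factors were 514 genes higher in left ventricle and 627 in skeletal muscle. With library size alone these counts were 1106 and 342. In bulk tissue, fewer cells of a type and less RNA per cell cannot be told apart.

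**Figure D1:**
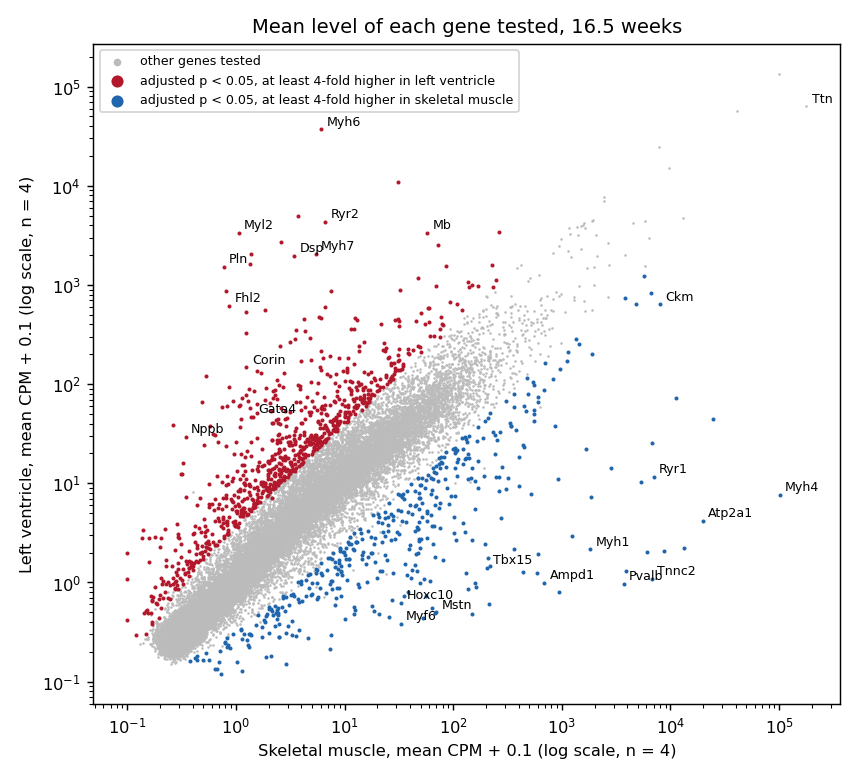
Mean CPM plus 0.1 of each gene tested in skeletal muscle (x axis) and left ventricle (y axis), both on log scales, 4 libraries per tissue. The 826 red genes and 428 blue genes are at least 4-fold apart and called, and Myh6 and Myh4 sit farthest from the diagonal.

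Thick filament genes separated the tissues. Of 26 tested members of the thick filament list, 8 were higher in left ventricle and 14 in skeletal muscle, 20 of these 22 by at least 4-fold. Myh6 encodes the alpha heavy chain of cardiac myosin and had 40689, 33596, 35432 and 39435 CPM in left ventricle and 6.84, 8.59, 4.02 and 4.34 CPM in skeletal muscle, a log2 difference of 12.67 ± 0.19 (adjusted p = 2.85e-10). Myh4, the fast IIb heavy chain, had 101047, 97233, 110279 and 95081 CPM in skeletal muscle and 1.48, 25.6, 1.70 and 1.61 CPM in left ventricle, a difference of -15.02 ± 0.95 (adjusted p = 0.00928). Myh6 lies on chromosome 14 at 54941921 to 54966927 (minus strand) and Myh4 on chromosome 11 at 67238029 to 67260446 (plus strand), in GRCm38 with GENCODE M21. The groups did not overlap for either gene, and the highest left ventricle value of Myh4 was in mouse 15. The fit of Myh4 without mouse 14, 19 or 20 gave -14.61, -14.59 and -14.74 with adjusted p of 0.0628, 0.0647 and 0.0668.

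The start regions of these 2 genes are printed since these genes carry the largest difference in each direction. They run from 250 bases before to 50 bases after the RefSeq start, in GRCm38.p6, at chr14:54966558-54966857 on the minus strand for Myh6 and chr11:67237562-67237861 on the plus strand for Myh4. Capitals mark matches on either strand to a MEF2 site, a CArG box (the site of serum response factor), CAGCTG (an E-box), CATTCC (the M-CAT core bound by TEAD factors) and TATAAA.
Myh6: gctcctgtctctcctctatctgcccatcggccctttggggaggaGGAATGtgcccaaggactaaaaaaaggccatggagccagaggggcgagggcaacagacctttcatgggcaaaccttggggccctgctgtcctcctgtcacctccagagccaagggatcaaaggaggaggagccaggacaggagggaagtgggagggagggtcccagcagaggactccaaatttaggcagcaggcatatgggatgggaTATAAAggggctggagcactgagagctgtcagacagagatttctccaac
Myh4: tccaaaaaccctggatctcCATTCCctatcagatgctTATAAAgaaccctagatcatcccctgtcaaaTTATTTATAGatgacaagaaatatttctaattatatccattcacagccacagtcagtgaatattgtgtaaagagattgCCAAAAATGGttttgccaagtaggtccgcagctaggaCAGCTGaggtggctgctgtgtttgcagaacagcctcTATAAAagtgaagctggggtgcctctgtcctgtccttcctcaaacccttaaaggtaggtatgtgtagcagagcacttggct
The Myh6 window held CATTCC on the minus strand of the window, as GGAATG, and 1 TATAAA. In the Myh4 window stood CATTCC, 3 TATAAA, of which 1 overlaps the MEF2 site, a CArG box and CAGCTG. A match is a description of the letters only.

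The other fast heavy chains followed Myh4. Myh1, the IIx chain, had 3079.6, 1615, 1252 and 1361 CPM in skeletal muscle and at most 3.30 CPM in left ventricle, and Myh2, the IIa chain, had 568, 303, 297 and 294 CPM against at most 2.58 CPM. For both, mouse 14 was the highest skeletal muscle library. Myh8, the perinatal chain, had 1364, 1158, 1315 and 1109 CPM in skeletal muscle, more than Myh2 in every mouse. How reads shared between heavy chain genes were counted is not given in the sources used here. Per exon kilobase, mean levels in skeletal muscle were 16774 CPM for Myh4, 288 for Myh1, 105 for Myh8, 51.2 for Myh2 and 7.97 for the embryonic chain Myh3.

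Myh7, the beta chain of the ventricle and of slow fibres, had 2024, 1992, 2150.4 and 2121 CPM in left ventricle and 5.14, 5.39, 5.24 and 5.50 CPM in skeletal muscle (8.60 ± 0.10). In left ventricle it reached 240.5 CPM per exon kilobase against 5544 for Myh6. Of 12 genes in the slow fibre list, 11 were higher in left ventricle, with a list median of 8.39, and none was higher in skeletal muscle. Members such as Myl2, Myl3 and Tnnc1 were known as genes of the ventricle, so this count is a description. The summed level of the 12 genes was 60.795 to 72.722 CPM in skeletal muscle and 18349 to 22201 CPM in left ventricle. The gene of that list not called was Tnni1, the slow skeletal troponin I, at 0.988, 1.06, 1.30 and 0.834 CPM in left ventricle and 1.34, 1.12, 0.997 and 0.844 CPM in skeletal muscle.

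Light chains and binding proteins divided in the same way. Myl2, the ventricular regulatory light chain, differed by 11.83 ± 0.45 and Mylpf, its fast skeletal counterpart, by -11.76 ± 0.35. Myl3, the ventricular essential light chain, differed by 10.34 ± 0.15 and Myl1 by -9.03 ± 0.10. Mybpc3, cardiac myosin binding protein C, had 2830.3, 2364, 2709 and 2903 CPM in left ventricle and at most 2.98 CPM in skeletal muscle, and its fast counterpart Mybpc2 had 6804, 6523, 7369.8 and 6156 CPM in skeletal muscle and at most 33.8 CPM in left ventricle. The M-band gene Myom1 had nearly equal levels, 1519.8, 1317, 1462 and 1656 CPM in left ventricle and 1693, 1664, 1899 and 1617 CPM in skeletal muscle (-0.21 ± 0.11, adjusted p = 0.213), which became -0.35 (0.0207) without mouse 20, -0.62 (0.00153) with upper-quartile factors and 0.02 (0.889) with library size alone.

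In the thin filament 8 of 20 members were higher in left ventricle and 9 in skeletal muscle. The 3 troponin subunits each came from a cardiac and a fast gene. Tnnc1, cardiac and slow troponin C, had 892, 808, 870.5 and 892 CPM in left ventricle and 0.850, 0.844, 0.483 and 0.675 CPM in skeletal muscle, and Tnnc2, the fast form, had 0.480, 2.51, 0.536 and 0.465 CPM and 6799.8, 6477, 7431 and 6091 CPM. The inhibitory subunits Tnni3 and Tnni2 differed by 10.67 ± 0.37 and -11.72 ± 0.32, and the tropomyosin-binding subunits Tnnt2 and Tnnt3 by 10.41 ± 0.16 and -12.90 ± 0.49. None of these 6 genes had overlapping groups, and overlap was not counted over all genes tested.

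Actin was less divided. Acta1, skeletal alpha-actin, had 11167, 11720.1, 12199.8 and 10240.4 CPM in skeletal muscle and 32.3, 56.5, 88.1 and 114 CPM in left ventricle (-7.43 ± 0.34). Actc1, cardiac alpha-actin, had 3465, 3181, 3100.3 and 3939 CPM in left ventricle and still 258, 545, 127 and 128 CPM in skeletal muscle (3.98 ± 0.49, adjusted p = 0.0174), with mouse 15 the highest of the skeletal muscle libraries. Its adjusted p was 0.0948, 0.0993 and 0.051 without mouse 14, 19 or 20. Tropomyosin 1 was shared: Tpm1 was higher in skeletal muscle (-1.47 ± 0.12) and made up 58.85 to 71.09% of Tpm1 plus Tpm2 there, against 99.16 to 99.46% in left ventricle.

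At the Z-disc 8 of 24 members were higher in left ventricle and 15 in skeletal muscle. Ttn, the titin spring that spans the sarcomere, had 67656, 57491, 60289 and 67759.9 CPM in left ventricle and 188419, 172111, 172328 and 181843 CPM in skeletal muscle (-1.5 ± 0.13). Neb, nebulin, which sets thin filament length in skeletal muscle, had 24142, 23026, 26121 and 24431 CPM there and 37.1, 50.7, 52.3 and 39.1 CPM in left ventricle (-9.11 ± 0.13). Actn3, the fast-fibre alpha-actinin, differed by -12.27 ± 0.37, and Actn2, the general sarcomeric form, by 4.37 ± 0.34. Actn2 remained at 171, 63.4, 55.6 and 54.7 CPM in skeletal muscle, highest in mouse 14. Csrp3, the muscle LIM protein, had 530.0, 456, 557 and 589.9 CPM in left ventricle and at most 1.90 CPM in skeletal muscle.

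In 27 pairs of related genes, the first gene was set as the more cardiac and the second as the more skeletal. The share of the first gene, in CPM per exon kilobase, did not overlap between tissues in any of the 27. It was over 95% in every left ventricle library and under 5% in every skeletal muscle library in 14 pairs, and on opposite sides of 50% in 20 pairs. In Pygb with Pygm, Pgam1 with Pgam2 and Eno1 with Eno3, enzymes of glycogen and sugar breakdown, the second gene was also the larger part in left ventricle. By level, the first genes of these pairs are thus not cardiac forms. The share of the first gene in left ventricle was 38.46 ± 1.913% for phosphorylase, 4.025 ± 0.3694% for phosphoglycerate mutase and 2.491 ± 0.1299% for enolase (SD, n = 4). Junctophilin, which holds the surface membrane to the calcium store, was mostly Jph2 in both tissues, 93.98 to 95.66% in left ventricle and 66.78 to 72.29% in skeletal muscle. These pairs were picked with the direction of many known, and overlap was not counted for gene pairs at large, so the count is a description.

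**Figure D2:**
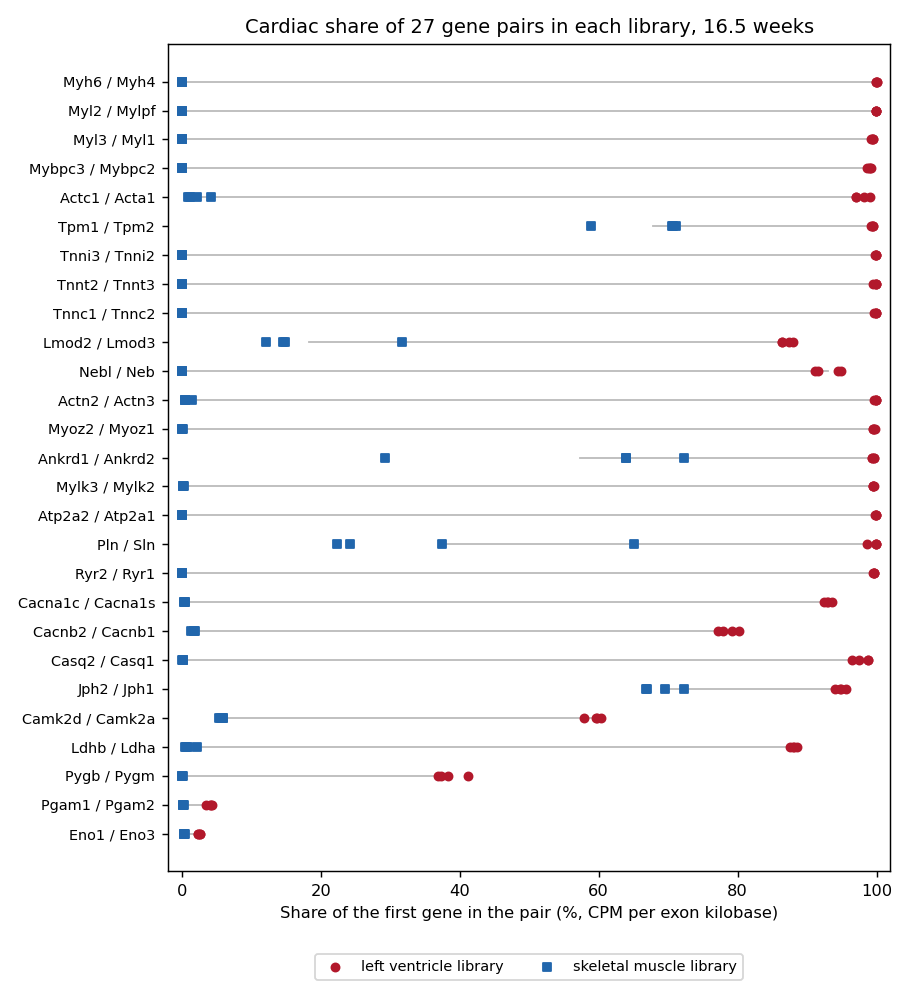
Share of the first gene in each pair (x axis, percent, from CPM per exon kilobase). Left ventricle libraries are red circles and skeletal muscle libraries blue squares, with grey lines between the tissue means, 4 libraries per tissue. The groups are apart in 27 pairs, and the enolase and phosphoglycerate mutase pairs lie close to 0 in both tissues.

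Calcium handling was also divided between isoforms. Of 33 members of that list 11 were higher in left ventricle and 18 in skeletal muscle. Ryr2, the cardiac calcium release channel, had 4752, 4149.8, 3898 and 4549 CPM in left ventricle and 5.62, 7.02, 6.77 and 6.50 CPM in skeletal muscle (9.39 ± 0.12). Ryr1, the skeletal channel, had 6891, 6445, 7539 and 7054 CPM in skeletal muscle and 11.6, 14.9, 9.50 and 10.3 CPM in left ventricle (-9.25 ± 0.14). Ryr2 lies on chromosome 13 at 11553102 to 12106945 and Ryr1 on chromosome 7 at 29003344 to 29125179, both on the minus strand. The voltage sensors followed, with Cacna1c at 5.23 ± 0.09 and Cacna1s at -6.40 ± 0.11, as did their beta subunits Cacnb2 (4.15 ± 0.10) and Cacnb1 (-3.59 ± 0.11).

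For refilling the store, Atp2a2, the cardiac and slow calcium pump, had 11875, 9623, 10496 and 11732 CPM in left ventricle and 27.9, 26.1, 34.4 and 34.8 CPM in skeletal muscle (8.48 ± 0.12). Atp2a1, the fast pump, had 20523, 19437, 20317 and 19039 CPM in skeletal muscle and 2.67, 8.66, 2.59 and 2.41 CPM in left ventricle (-12.47 ± 0.38). Pln, phospholamban, which restrains the cardiac pump, had 1676, 1253, 1394 and 1754 CPM in left ventricle and at most 1.05 CPM in skeletal muscle. Inside the store, Casq2 differed by 6.81 ± 0.18 and Casq1 by -8.18 ± 0.42. Pvalb, parvalbumin, the calcium buffer of fast fibres, had 4077, 3450.4, 3426 and 3916 CPM in skeletal muscle and at most 1.49 CPM in left ventricle. Hrc, a calcium-binding protein of the store, was at like levels (0.15 ± 0.13, adjusted p = 0.560), and it was -0.26 (0.185) with upper-quartile factors and 0.37 (0.0089) with library size alone.

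Among ion channels 17 of 27 were higher in left ventricle and 8 in skeletal muscle. Scn4a, the skeletal sodium channel, had 38.1, 30.8, 48.3 and 54.0 CPM in left ventricle and 532, 481, 609 and 569.7 CPM in skeletal muscle (-3.71 ± 0.10), and the groups did not overlap. Kcnj3 and Kcnj5, which form the potassium channel opened by the vagus nerve, differed by 5.43 ± 0.15 and 4.72 ± 0.12, and Kcnip2, a subunit of the transient outward current, by 5.13 ± 0.09. Clcn1, the chloride channel that steadies the skeletal fibre membrane, was higher in skeletal muscle (-3.67 ± 0.09).

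Genes of the intercalated disc were higher in left ventricle in 19 of 22, with a list median of 2.16. Dsp, desmoplakin, which ties desmosomes to desmin, had 1967, 1699, 2014 and 2212 CPM in left ventricle and 3.07, 3.68, 2.88 and 3.68 CPM in skeletal muscle (9.21 ± 0.12). Cdh2, N-cadherin, differed by 6.62 ± 0.11, and the desmosomal cadherins Dsg2 and Dsc2 by 5.68 ± 0.11 and 5.46 ± 0.10. The 3 members higher in skeletal muscle were Nrap (-0.88 ± 0.13), which also serves the myotendinous junction, Popdc3 (-0.99 ± 0.10) and Bves (-0.34 ± 0.09). Bves had an adjusted p of 0.0745 without mouse 15 and 0.283 with library size alone.

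Most cardiac transcription factors were higher in left ventricle and most skeletal ones in skeletal muscle. Both lists were drawn up by known tissue, so their counts are a description. In the cardiac list 18 of 22 were higher in left ventricle, 13 of them by at least 4-fold, and 1 in skeletal muscle (3 with upper-quartile factors), with a median of 2.53. Gata4, which opens cardiac genes in development, had 49.4, 37.2, 44.7 and 56.4 CPM in left ventricle and 1.497, 1.43, 1.03 and 1.38 CPM in skeletal muscle (5.12 ± 0.12). Gata4 lies on chromosome 14 at 63198922 to 63271692. Tbx20, Myocd and Hopx differed by 5.34 ± 0.11, 5.06 ± 0.14 and 6.40 ± 0.37.

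In the skeletal list 22 of 25 were higher in skeletal muscle and 1 in left ventricle, with a median of -1.71. Myf6, the myogenic factor of mature fibres, had 33.8, 27.9, 37.5 and 31.8 CPM in skeletal muscle and 0.240, 0.293, 0.243 and 0.358 CPM in left ventricle (-6.83 ± 0.16). Tbx15, a factor of fast glycolytic fibres, had 178, 164, 251 and 234 CPM and 0.761, 1.51, 1.46 and 1.49 CPM (-7.31 ± 0.15). Eya4, a transcriptional coactivator, differed by -4.57 ± 0.21. The exception was Six5 (1.09 ± 0.13).

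Hox genes, which record position along the body axis, were called higher in skeletal muscle in 20 of 39 and in left ventricle in none. Hoxc10, on chromosome 15 at 102966796 to 102971893, was the farthest apart of the 39 at 30.5, 28.6, 40.0 and 34.0 CPM in skeletal muscle and 0.534, 0.391, 0.383 and 0.775 CPM in left ventricle (-6.01 ± 0.18). Hoxc9 differed by -3.27 ± 0.16, Hoxa10 by -2.90 ± 0.15 and Hoxc4 by -2.88 ± 0.19. The summed level of the 39 genes was 120.99 to 142.98 CPM in skeletal muscle and 37.58 to 41.383 CPM in left ventricle.

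Of 29 hormones and receptors 16 were higher in left ventricle and 7 in skeletal muscle. Nppb, B-type natriuretic peptide, had 35.1, 25.9, 23.5 and 32.2 CPM in left ventricle and at most 0.338 CPM in skeletal muscle, and Corin, the protease that activates A-type natriuretic peptide, had 174, 143, 135 and 138 CPM against at most 1.39 CPM. Chrm2, the muscarinic receptor through which the vagus slows the heart, differed by 5.96 ± 0.11. Mstn, myostatin, which limits muscle growth, had 63.1, 63.6, 85.2 and 64.4 CPM in skeletal muscle and 0.374, 0.358, 0.574 and 0.298 CPM in left ventricle (-7.44 ± 0.12). The Mstn gene lies on chromosome 1 at 53061640 to 53068079.

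At the neuromuscular junction 12 of 18 genes were higher in skeletal muscle and 4 in left ventricle. Chrne, the adult subunit of the acetylcholine receptor, had 6.59, 5.34, 8.58 and 9.52 CPM in skeletal muscle and 0.654, 1.04, 0.498 and 0.870 CPM in left ventricle (-3.28 ± 0.24). Chrna1, the receptor's alpha subunit, differed by -2.09 ± 0.18 and Ache, the enzyme that splits acetylcholine, by -2.19 ± 0.10. With upper-quartile factors 1 gene of the list was higher in left ventricle.

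Genes of fat and ketone use lay almost wholly on 1 side: 34 of 35 were higher in left ventricle, 26 by at least 4-fold, with a median of 2.37. Lpl, which releases fatty acids from lipoproteins, had 2774, 2274, 2331 and 2631 CPM in left ventricle and 77.0, 44.0, 44.8 and 122 CPM in skeletal muscle (5.25 ± 0.22). Fabp3, the fatty acid carrier of heart, had 1149, 894, 1183 and 1449.5 CPM and 61.9, 37.2, 45.1 and 43.2 CPM (4.64 ± 0.13). The ketone enzyme gene Bdh1 and the lipid droplet gene Plin5 differed by 4.31 ± 0.10 and 4.28 ± 0.23. The gene not called was the uncoupling protein gene Ucp3 (-0.31 ± 0.14, adjusted p = 0.188), which was -0.72 (0.00195) with upper-quartile factors.

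In sugar and glycogen use 23 of 41 genes were higher in skeletal muscle and 13 in left ventricle. Ldhb, the heart form of lactate dehydrogenase, had 882, 802, 854 and 977 CPM in left ventricle and 15.96, 3.97, 6.27 and 3.58 CPM in skeletal muscle, and Ldha, the muscle form, 265, 227, 233 and 281 CPM and 1454, 1403, 1382 and 1482 CPM. The lactate carriers parted in the same way, Slc16a1 at 3.83 ± 0.10 and Slc16a3, which exports lactate, at -5.35 ± 0.10. Phosphorylase kinase, which switches on glycogen breakdown, was higher in skeletal muscle through its subunits Phka1 (-4.51 ± 0.12) and Phkg1 (-4.47 ± 0.09). Hk1, hexokinase 1, was higher in left ventricle (3.73 ± 0.08), and Pfkfb3, which makes an activator of glycolysis, in skeletal muscle (-5.40 ± 0.17).

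Respiratory chain genes of the nucleus differed little each but nearly all in 1 direction: 78 of 80 were higher in left ventricle, with a median of 1.14 and 2 at least 4-fold apart. These 2 were Cox6a1 (2.46 ± 0.11) and Cox8a (2.13 ± 0.13), and the 2 not called were Ndufb4 (0.20 ± 0.08) and Ndufc1 (0.25 ± 0.09), which were 0.42 and 0.48 and called with library size alone, and -0.21 and -0.16 with upper-quartile factors. With upper-quartile factors 63 of the 80 were called and none was higher in skeletal muscle. The 13 protein genes of the mitochondrial genome were all called higher in left ventricle, with a median of 1.30. Of these mt-Co1, a cytochrome oxidase subunit, had 25720.2, 20122, 23555 and 29181 CPM in left ventricle and 7144, 6757, 9216 and 7998 CPM in skeletal muscle (1.66 ± 0.13).

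In the citric acid cycle and its shuttles 18 of 21 were higher in left ventricle and 2 in skeletal muscle. Idh2, mitochondrial isocitrate dehydrogenase, had 918, 767, 862 and 1036 CPM in left ventricle and 37.6, 35.2, 22.9 and 32.6 CPM in skeletal muscle (4.82 ± 0.13). The aspartate carriers took opposite sides, Slc25a13 at 6.10 ± 0.13 and Slc25a12 at -0.89 ± 0.09. The other gene higher in skeletal muscle was Pcx, pyruvate carboxylase (-1.72 ± 0.22).

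Genes of energy buffering had calls on both sides. Ckm, the cytosolic muscle creatine kinase, had 6733, 8121, 9418 and 7804 CPM in skeletal muscle and 653, 579, 587 and 731 CPM in left ventricle (-3.65 ± 0.13), whereas Ckmt2, the mitochondrial form, had 239.6, 200.1, 239 and 241 CPM and 988, 880.5, 896 and 1022 CPM (2.04 ± 0.09). Ampd1, the muscle AMP deaminase, had 795, 717, 630.4 and 621 CPM in skeletal muscle and at most 1.45 CPM in left ventricle. Mb, myoglobin, which stores oxygen, had 3403, 3045, 3285 and 3638 CPM in left ventricle and 132, 43.8, 24.7 and 29.0 CPM in skeletal muscle (6.23 ± 0.51), highest there in mouse 14. Over the 20 genes of the list 9 were higher in left ventricle and 7 in skeletal muscle.

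Protein turnover and the membrane skeleton had calls on both sides. In the turnover list 18 of 29 were higher in skeletal muscle and 5 in left ventricle, among them the kelch genes Klhl41, which steadies nebulin (-2.91 ± 0.10), and Klhl31 (-2.77 ± 0.11). In the dystrophin and costamere list 5 of 18 were higher in left ventricle and 7 in skeletal muscle, which became 10 and 6 with library size alone and 4 and 11 with upper-quartile factors. Dmd, dystrophin, had 450.3, 372, 414 and 464 CPM in left ventricle and 713, 479, 421 and 461 CPM in skeletal muscle and was not called (-0.26 ± 0.12, adjusted p = 0.154). It was called at -0.41 (0.0393) without mouse 20 and at -0.67 (0.00071) with upper-quartile factors. Its relative Utrn, utrophin, was higher in left ventricle (1.62 ± 0.10). Of 13 imprinted growth genes 5 were higher in skeletal muscle, with H19 farthest (-4.14 ± 0.20), and 1 in left ventricle.

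**Figure D3:**
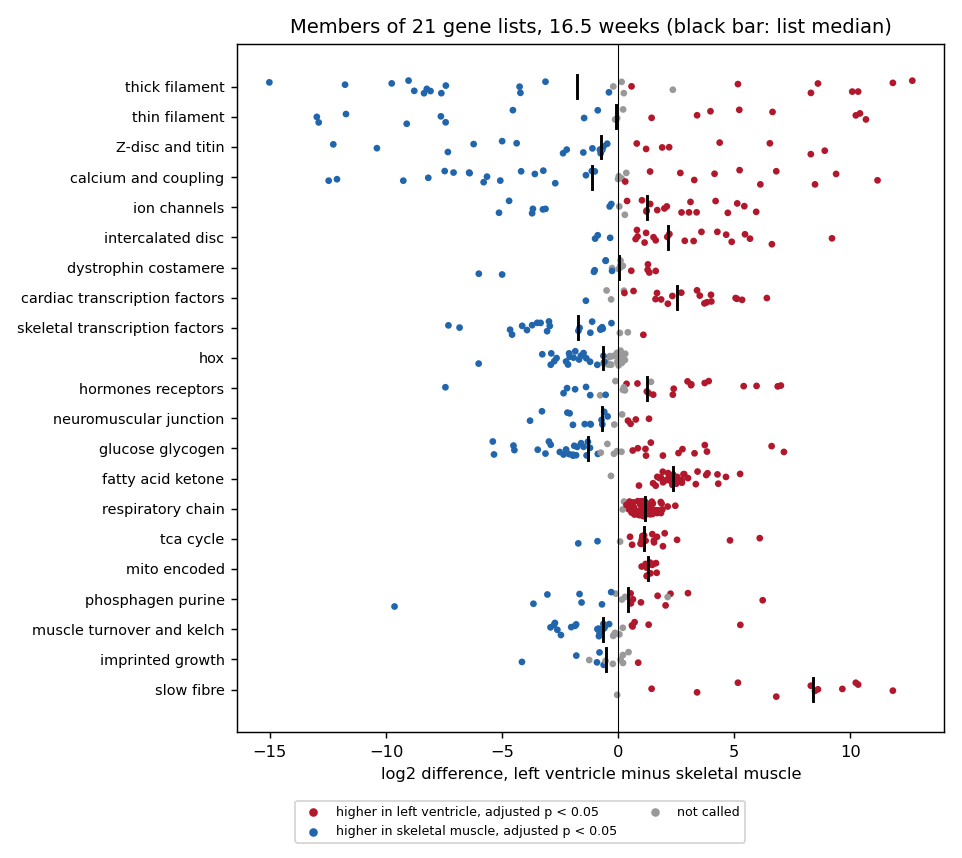
Log2 difference of left ventricle over skeletal muscle (x axis) for each tested member of 21 gene lists, red or blue where called and grey where not, with a black bar at the list median. Sarcomere and calcium lists spread to both sides, and 34 of 35 genes of the fat list and 78 of 80 of the respiratory chain list are red, with medians of 2.37 and 1.14.

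Genes of some other cell types also differed. All 12 endothelial markers were higher in left ventricle, with a median of 1.92 and a summed level of 795.09 to 946.37 CPM against 187.8 to 230.2 CPM. Kdr, a receptor for endothelial growth factor, had 244, 202, 191 and 258 CPM in left ventricle and 35.0, 29.4, 25.9 and 37.2 CPM in skeletal muscle (2.81 ± 0.08). Smooth muscle and pericyte markers were higher in left ventricle in 8 of 10, macrophage markers in 8 of 12 and red blood cell markers in 5 of 7. Fibroblast markers were called in 2 of 12, both higher in left ventricle, which is near the 18.0% of all genes tested. Without mouse 19 they were called in 5 higher in left ventricle and 3 in skeletal muscle. Their summed level was 565.09 to 809.74 CPM in left ventricle and 327.56 to 1016.5 CPM in skeletal muscle. Satellite cell markers were split, 4 of 8 higher in skeletal muscle and 2 in left ventricle. The part of these cells in the differences above was not tested.

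Adipocyte markers summed to 31.807 to 47.04 CPM in skeletal muscle of mice 14, 15 and 19 and 176.76 CPM in mouse 20, and to 37.076 to 49.773 CPM in left ventricle. They were called in 2 of 10 members higher in left ventricle and 1 in skeletal muscle, near the 18.0% and 7.52% of all genes tested. Without mouse 20 they were called in 7 higher in skeletal muscle. No kidney marker of 8 was called, at summed levels up to 68.854 CPM in left ventricle of mouse 20 and 104.51 CPM in skeletal muscle of mouse 19 and 15.174 to 20.17 CPM in the other 6 libraries.

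Some abundant genes were alike. For 4275 genes (10.8% of those tested) the 95% interval of the difference lay within -0.5 to 0.5. Among the most abundant of these was Eef2, the translation elongation factor. It had 814, 699, 768 and 838 CPM in left ventricle and 715, 745, 791 and 689 CPM in skeletal muscle. Also among them were the chaperone gene Hspa8 (0.19 ± 0.12), the M-band gene Myom1 and the calcium store gene Hrc, the last ones given above. Signs of such small values turn with the scaling: Eef2 was 0.08 ± 0.10 here, -0.33 with upper-quartile factors and 0.31 with library size alone (adjusted p = 0.00118).

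In skeletal muscle some genes differed widely between mice. Mybpc1, slow myosin binding protein C, had 1598, 403, 86.0 and 255 CPM there and at most 1.52 CPM in left ventricle (-8.24 ± 0.95, adjusted p = 0.0225). Mouse 14 was highest, as it was for Mb, Actn2, Ldhb, Myh1 and Myh2. Without mouse 15 or 20 the adjusted p of Mybpc1 was 0.121. Amd1, a polyamine synthesis enzyme, had 132, 134, 1223 and 1043 CPM in skeletal muscle and 59.4, 54.5, 57.7 and 65.8 CPM in left ventricle, and was not called (-2.71 ± 0.82, adjusted p = 0.185). It was called at -3.41 (0.0354) without the mouse block and at -2.82 (0.000804) with DESeq2. Amd1 has a near-identical copy, Amd2, so its reads may be split. Both males stood above both females in skeletal muscle, and in left ventricle the mice were alike.

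**Figure D4:**
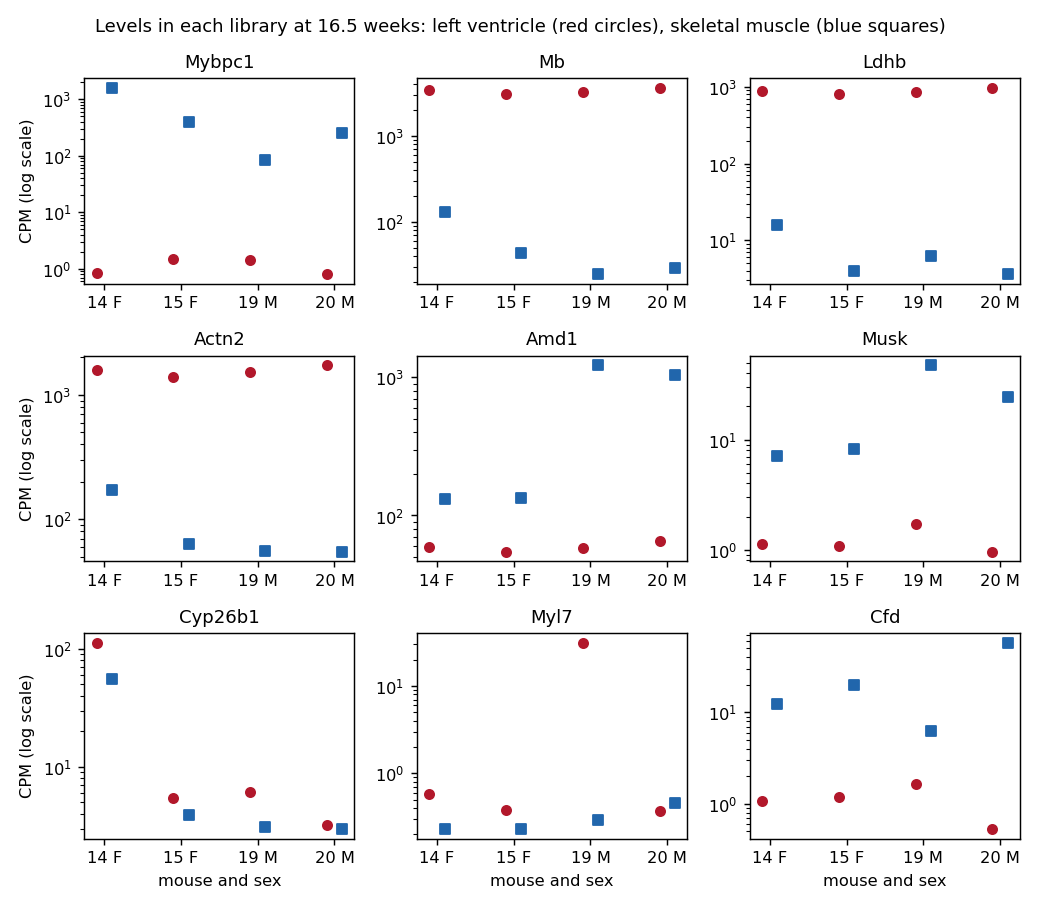
CPM on log axes (y) of 9 genes in each of the 4 mice (x, F female and M male), left ventricle as red circles and skeletal muscle as blue squares, 1 library per point. Mouse 14 is highest in skeletal muscle for Mybpc1, Mb, Ldhb and Actn2, and the males are highest for Amd1 and Musk.

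The same comparison in the 86-week mice tested 40955 genes and called 9881 (24.1%), 7138 higher in left ventricle (17.4%) and 2743 in skeletal muscle (6.7%). At least 4-fold apart were 842 (2.06%) and 397 (0.969%). Of the genes called at 16.5 weeks, 87.0% of those higher in left ventricle and 74.9% of those higher in skeletal muscle were called again in the same direction. Among genes at least 4-fold apart these shares were 97.3% (804 of 826) and 97.2% (416 of 428). The 1 gene called in the opposite direction was the predicted gene Gm50364, named after its values were seen, at -2.08 at 16.5 weeks and 2.75 at 86 weeks. The 86-week skeletal muscle library of mouse 17 stood apart in cardiac genes: Myh6 was at 4.27, 8.25, 5.03 and 310.4 CPM in mice 11, 12, 14 and 17. There Myh6 differed by 11.63 ± 1.32 (adjusted p = 0.0483) and Pln by 9.99 ± 1.07 (adjusted p = 0.0276). Without that mouse 8913 genes were called at 86 weeks.

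**Figure D5:**
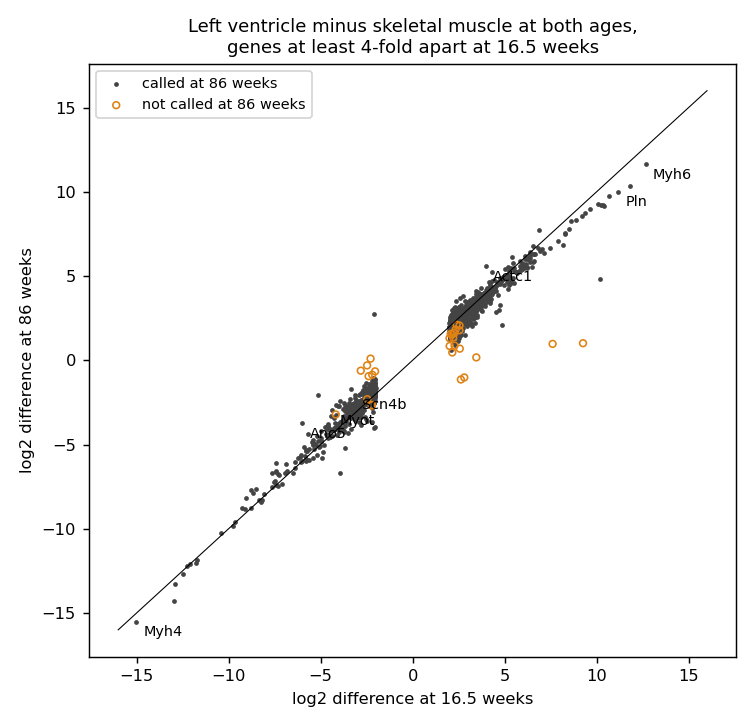
Log2 difference of left ventricle over skeletal muscle at 16.5 weeks (x axis) and 86 weeks (y axis) for genes called and at least 4-fold apart at 16.5 weeks, filled where also called at 86 weeks and open orange where not. The line marks equal differences, and 804 of 826 and 416 of 428 genes were called again on the same side.

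Whether the tissue difference itself changed with age was tested in all 16 libraries, and 13 of 39832 genes passed (0.0326%), 10 shifted towards left ventricle at 86 weeks (0.0251%) and 3 away from it (0.00753%). Ano5, a membrane repair gene linked to limb-girdle dystrophy, had 2.44, 3.79, 5.69 and 5.58 CPM in left ventricle at 16.5 weeks and 17.1, 16.4, 19.9 and 14.8 CPM at 86 weeks, with 324, 311, 219 and 240.1 and 301, 251, 216 and 162 CPM in skeletal muscle (shift 2.27 ± 0.17, adjusted p = 0.000277). The Z-disc gene Myot had 16.5, 12.8, 32.5 and 29.9 CPM in left ventricle at 16.5 weeks and 59.2, 45.9, 73.5 and 55.8 CPM at 86 weeks (shift 1.41 ± 0.14). The sodium channel subunit gene Scn4b shifted by 1.09 ± 0.13, Plet1os, named as antisense and counted with an unstated strand setting, by 1.39 ± 0.18 and the ubiquitin ligase gene Mib1 by -1.04 ± 0.13. Leaving out 1 mouse at a time gave 1 to 27 genes, with 1 without 86-week mouse 12, 2 without 86-week mouse 11 or 16.5-week mouse 15, 20 without 16.5-week mouse 20 and 27 without 16.5-week mouse 19. The shifts of Myot, Scn4b and Plet1os were not called without 86-week mouse 11 or 12 or 16.5-week mouse 15 (adjusted p of 0.109 to 0.332), nor that of Mib1 without 86-week mouse 12 (0.21) or 16.5-week mouse 15 (0.137). With library size alone Ano5 had an adjusted p of 0.156 and Myot 0.0921, and without the mouse block Scn4b, Mib1 and Plet1os had 0.178, 0.0787 and 0.0517. Scn4b had 0.0539 with mitochondrially encoded genes left out.

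The difference between tissues depended on sex in 122 of the same 39832 genes over both ages (0.306%), 85 shifted towards left ventricle in males (0.213%) and 37 in females (0.0929%). Il15, a cytokine made by muscle, had 2.87, 4.13, 1.30 and 1.35 CPM in skeletal muscle at 16.5 weeks, higher in both females, and 11.1, 10.6, 12.2 and 12.8 CPM in left ventricle (shift 1.79 ± 0.18, adjusted p = 0.000282). Serpinb6a, a protease inhibitor, had 70.6, 67.3, 238 and 179.8 CPM in skeletal muscle, higher in both males, and 51.0, 42.7, 55.4 and 53.5 CPM in left ventricle (shift -1.33 ± 0.11). Selenbp1 shifted by 1.24 ± 0.12 and the channel gene Best3 by 1.30 ± 0.13. Musk, the receptor kinase that organises the neuromuscular junction, had 7.13, 8.18, 47.4 and 24.6 CPM in skeletal muscle, higher in both males (shift -1.44 ± 0.21, adjusted p = 0.00832), and was not called without 86-week mouse 14 (0.0648) or without the mouse block (0.395). Amd1 shifted by -2.35 ± 0.30 (adjusted p = 0.0411), with adjusted p of 0.174, 0.0735 and 0.0591 without 86-week mouse 14 and 16.5-week mice 14 and 19, 0.0651 with limma-voom and 0.0532 with library size alone. The count was 28 without 86-week mouse 12, 27 without 16.5-week mouse 15 and 288 without 16.5-week mouse 19, and from 41 to 59 without 86-week mice 11 and 14 and 16.5-week mouse 20.

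Of genes at least 4-fold apart with 20 CPM or more in either tissue, 334 higher in left ventricle and 193 higher in skeletal muscle had a RefSeq start region, as had 4215 of all genes with that level and 19780 of all genes tested. Shares are of genes, and a gene counted if any of its start regions held the letters. The MEF2 site stood in 8.29% of genes higher in skeletal muscle, 4.19% of those higher in left ventricle, 2.85% of all with that level and 3.21% of all tested. In the same order, CAGCTG, searched on both strands like the others, stood in 32.1%, 29.0%, 18.5% and 18.3%, and the CArG box in 4.66%, 4.19%, 2.11% and 1.72%. AGATAA, the letters of a GATA site, stood in 9.33%, 10.5%, 7.16% and 11.5%. CATTCC stood in 18.1%, 18.6%, 14.7% and 15.8%, and TATAAA in 14.5%, 11.1%, 9.25% and 14.3%. These shares describe letters in a window and were not tested.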

How the data were processed

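Total RNA libraries, made after ribosomal RNA depletion (Zymo-Seq RiboFree) per the labels' protocols, came from heart (left ventricle), skeletal muscle and kidney, in 4 mice per age, 2 of each sex. The authors deposited 1 table of whole-number counts for 55401 genes in 24 libraries; per the submitters' processing notes the tools were STAR 2.7.6a and StringTie 2.1.1 with GRCm38.p6. Annotation, strand setting and how counts were derived are not given in the sources used here. Gene IDs were matched to GENCODE M21 for 55141 genes, and 110 symbols occurred more than once, where the ID with more counts was taken.

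From the counts, edgeR 4.0.16 in R 4.3.3 was run with filterByExpr, TMM factors, mouse as a replicate block, robust quasi-likelihood F-tests and Benjamini-Hochberg adjustment, called at 0.05. Levels are CPM of the TMM-scaled library (kidney: plain CPM). Residual degrees of freedom were 3 per age and 5 for the interactions with age and sex over 16 libraries. Library totals of 64355186 to 90785138 counts set the counting error. The pairing follows from sample titles that give both tissues of a mouse, and deviations of the 2 libraries of a mouse correlated at 0.183, 0.227, 0.0554 and 0.0797 across 18254 genes, against at most 0.0713, 0.0362, 0.152 and 0.166 with a library of another mouse. Mice 19 and 20 thus correlated better with another mouse, and genes are not independent replicates. On simulated counts for 38614 genes at 16.5 weeks, 70% of 100 genes changed 2-fold and 99% of 100 changed 4-fold were called. There, 12 of 181 calls were false. The age test, on 38865 genes, called 53% and 96%, with 18 false among 167 calls. The sex test, on 39117 genes, called 53% and 97%, with 18 false among 168 calls. In these runs the false part was larger for age and sex than at 16.5 weeks, but each test was simulated without repeats. No mouse effect was simulated, and at 16.5 weeks far fewer genes were changed than the 10110 called in the data. Changed genes were drawn only from those above a minimum mean count, so the recovery does not cover low-count genes.

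Members and the 35 gene lists were chosen with earlier results of these data known. The naming rule took the members of the 28 pairs, up to 4 called members of each list in each direction with at least 1 CPM and up to 2 not called, the largest differences with at least 20 CPM, the most abundant and the most alike genes, the 5 smallest p of each interaction, the genes that varied most between mice, and Hox genes with 1 CPM. The text prints a part of these, and 1 pair and some other genes are not reported here. Outside the rule, Myh2, Myh3, Myh7, Myh8, Myl7, Ttn and Umod were named after their values were seen. Alternatives were DESeq2 1.42.0, limma 3.58.1 voom, other scalings and filters, no block and each mouse left out. Start regions are RefSeq's (GRCm38.p6). Figures used matplotlib 3.10.9.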

Additional observations from a re-analysis of the deposited data

Results flagged for a closer look

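In 264 sets of 4 libraries (a gene in 1 tissue) 21 had a library far from the other 3 by Dixon's test, as had 7 of 70 summed lists. Chance alone gives about 1 in 20, but some of these genes were chosen because they varied between mice or after their values were seen, so the count is not a test. Left ventricle of mouse 15 was high for fast skeletal genes: 25.6 CPM of Myh4, 8.66 of Atp2a1, 4.90 of Tnnt3, 3.57 of Tnni2 and 2.51 of Tnnc2. That library was also low for Dsg2 (76.2 CPM). In mouse 19 the left ventricle was high for Myl7 (31.2 CPM), Myl1 (13.8 CPM) and the summed atrial markers (175 CPM). Mouse 20 stood high in left ventricle for Umod (6.98 CPM), the summed kidney markers (68.9 CPM) and Popdc3 (12.3 CPM), and low for the summed Schwann cell and nerve markers (20.9 CPM). Tbx15 was low in left ventricle of mouse 14 (0.761 CPM).

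In skeletal muscle, mouse 14 was high for Myh2 (568 CPM), Actn2 (171 CPM), Hoxa10 (10.2 CPM) and the summed citric acid cycle genes (3864.5 CPM). Skeletal muscle of mouse 19 was high for Umod (16.1 CPM), the summed kidney markers (105 CPM), Mstn (85.2 CPM) and Tnnt3 (15378 CPM). That of mouse 20 was high for the summed adipocyte markers (177 CPM), the summed hormones and receptors (297 CPM) and Hoxc9 (5.83 CPM), and that of mouse 15 was low for Ckmt2 (200.1 CPM). Cyp26b1 was high in mouse 14 in left ventricle (112.6 CPM) and skeletal muscle (56.0 CPM).

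The tissue difference shifted between ages (86 minus 16.5 weeks, log2) by 2.27 for Ano5, 1.41 for Myot, 1.39 for Plet1os, 1.09 for Scn4b and -1.04 for Mib1. Between sexes (males minus females) it shifted by 1.79 for Il15, 1.30 for Best3, 1.24 for Selenbp1, -1.33 for Serpinb6a, -1.44 for Musk and -2.35 for Amd1. These differences passed edgeR's interaction tests.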

How the results depend on the processing

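Counts of genes called at 16.5 weeks stayed within 1.5 times of the main count when each mouse was left out (8666 to 9418). Upper-quartile factors gave 3985 genes higher in left ventricle and 8017 in skeletal muscle, with 514 and 627 at least 4-fold apart. Library size alone gave 1981 higher in skeletal muscle. At 86 weeks upper-quartile factors gave 4201 and 7893, with 515 and 608 at least 4-fold apart, and the filter of 1 CPM in 4 libraries gave 4858 higher in skeletal muscle. Without the replicate block 9870 genes were called at 16.5 weeks, 9648 of them shared, and 8765 at 86 weeks. For the shift with age, the 13 genes became 3 with no replicate block, 57 with DESeq2, 7 with RLE factors, 5 without mitochondrially encoded genes, 22 above the olfactory receptor level and 1 to 27 with a mouse left out. For sex, the 122 genes became 51 with no replicate block, 433 with DESeq2, 209 with limma-voom, 67 with no low-count filter, 58 without mitochondrially encoded genes and 27 to 288 with a mouse left out. The cause was not tested.

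Signs of small differences turned. With upper-quartile factors Hrc was -0.26, Eef2 -0.33, Hspa8 -0.22, Ndufb4 -0.21, Ndufc1 -0.16 and Plet1os -0.25. With the 1 CPM filter Hrc was -0.020, Eef2 -0.084 and Plet1os -0.0076. With library size alone Myom1 was 0.018 and Tnni1 0.19. DESeq2 and RLE factors each gave -0.026 for Eef2. Leaving out 1 mouse gave -0.082 (without mouse 20) to 0.25 for Hrc, -0.046 (without mouse 20) to 0.14 for Eef2, -0.18 to 0.096 (without mouse 14) for Tnni1, and -1.67 to 0.51 (without mouse 19) for Umod.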

Other observations

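The retinoic acid-degrading enzyme gene Cyp26b1 was high in all tissues of 1 mouse. In mouse 14 it had 112.6 CPM in left ventricle, 56.0 CPM in skeletal muscle and 91.1 CPM in kidney, against 3.24 to 6.10, 2.95 to 3.92 and 3.74 to 9.71 CPM in the other 3 mice.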
